A study of Mus musculus with 6 samples.

Results

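Extracellular adenine and uracil nucleotides, the adenosine formed from them and the receptors that read them were examined in infarct macrophages through 10 genes, taken from the gene count table by symbol. They comprise 3 adenosine receptors (Adora2a, Adora2b and Adora3), 3 G protein-coupled nucleotide receptors (P2ry6, P2ry12 and P2ry14), the ATP-gated channels P2rx4 and P2rx7, and the ectoenzymes Entpd1 and Nt5e. These are 10 of the 54532 genes in the table, and all of them were among the 14522 genes with enough reads to be tested.

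Polyadenylated RNA was sequenced from macrophages of single hearts, harvested 7 days after permanent occlusion of the left anterior descending coronary artery. Cells were depleted of Ly6G+ cells and then selected for CD11b with magnetic beads, so that CD11b+ cells other than macrophages could be present. Myα5KO mice carried floxed Itga5 alleles and LyzM-Cre, which is driven from the Lyz2 locus in macrophages, monocytes and neutrophils. The controls were ITGA5 fl/fl littermates, which carry the floxed alleles without Cre. All mice were about 12 weeks old and on a C57BL/6 background, and the knockout and the control group had 3 libraries each. The comparison asked how loss of the α5 integrin chain, a subunit of the fibronectin receptor, alters the transcripts of macrophages in a healing infarct.

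Injured cells and activated leukocytes release ATP, which acts on the P2X channels and on some P2Y receptors as a danger signal. CD39, the product of Entpd1, removes phosphates from ATP and ADP to leave AMP, and CD73, the product of Nt5e, converts AMP to adenosine. Adenosine acts back on the cell through the P1 receptors, of which the A2a and A2b receptors raise cyclic AMP and are known to restrain inflammatory cytokines and to favour IL-10 and VEGF in macrophages, whereas the A3 receptor couples to inhibitory G proteins.

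Library totals were 15424451 to 18152357 counts in controls and 18232574 to 18419287 in knockouts. Itga5 averaged 607 ± 43.2 CPM (a count relative to its library's total, scaled by TMM; mean ± SD, n = 3) in controls and 48.7 ± 1.48 in knockouts, which is 8.02% of control (log2 fold change -3.64, adjusted p = 4.42e-12, edgeR quasi-likelihood test). Every library matched its label by this measure. Lyz2, whose locus holds the Cre, was lower as well (log2 fold change -0.92, adjusted p = 4.27e-05). Of the 10 macrophage markers none was called lower and 1, Fcgr1, was called higher. The other 9 had a negative log2 fold change, and the median over the list was -0.051. Several other marker lists also differed with genotype. Summed monocyte markers were 316 to 397 CPM in controls and 466 to 478 in knockouts, with 3 of 7 called higher, and granulocyte markers were 180 to 225 and 242.5 to 370 CPM, with 5 of 7 tested markers called higher. Body cavity macrophage markers were 102 to 276 and 65.0 to 80.5 CPM, with 5 of 7 called lower, and fibroblast markers 1618 to 1897 and 1209 to 1578 CPM, with 1 of 7 called lower. Cardiomyocyte markers were 18.8 to 21.3 and 12.3 to 16.1 CPM, with 2 of 6 called lower, and T and NK cell markers 23.3 to 25.7 and 28.0 to 29.1 CPM, with none of 4 tested markers called. In these 6 lists, as in the summed macrophage markers (13610 to 13830 and 12840 to 13340 CPM), the groups did not overlap. The exact two-sided permutation p was 0.1 for each, the smallest this design allows, and 0.2 after adjustment over 14 lists. Ly6g, the surface marker used for depletion, had 0 to 2 reads per library. B cell markers were 68.0 to 107 CPM in controls and 107 to 172.5 in knockouts, ranges that overlapped slightly, with 2 of 5 called higher (exact permutation p = 0.2, adjusted 0.35). The part of these shifts in the results that follow was not tested.

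In Myα5KO infarct macrophages the A2b adenosine receptor transcript fell to 68.5% of control (95% confidence interval 59.0 to 79.6%) and that of the ectonucleotidase CD39 to 78.3% (70.1 to 87.5%). No member was called higher. The other 8 members, which include the A2a and A3 receptors, CD73, both P2X channels and the 3 P2Y receptors, did not pass the adjusted threshold. A gene was called at an adjusted p of 0.05 or less over all genes tested, and 8.75% of those genes were called, 5.19% lower and 3.56% higher. Of the 10 members, 2 were called lower and 0 higher by edgeR, and the same counts were given by DESeq2. At an unadjusted p under 0.05, 3 were lower and 0 higher by both tools. By edgeR 11.4% of all genes tested were lower and 11.7% higher at that threshold. By DESeq2 the shares were 5.44% and 4.25% of 27687 genes, which are all genes with a read in any library. The median log2 fold change was -0.06 over the members and 0.01 over all genes tested, and 5 of the 10 had a negative value against 6854 of 14522. The CPM ranges of the groups did not overlap for 3 members (Adora2b, Entpd1 and P2ry6), against 28.6% of all genes tested.

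**Figure D1:**
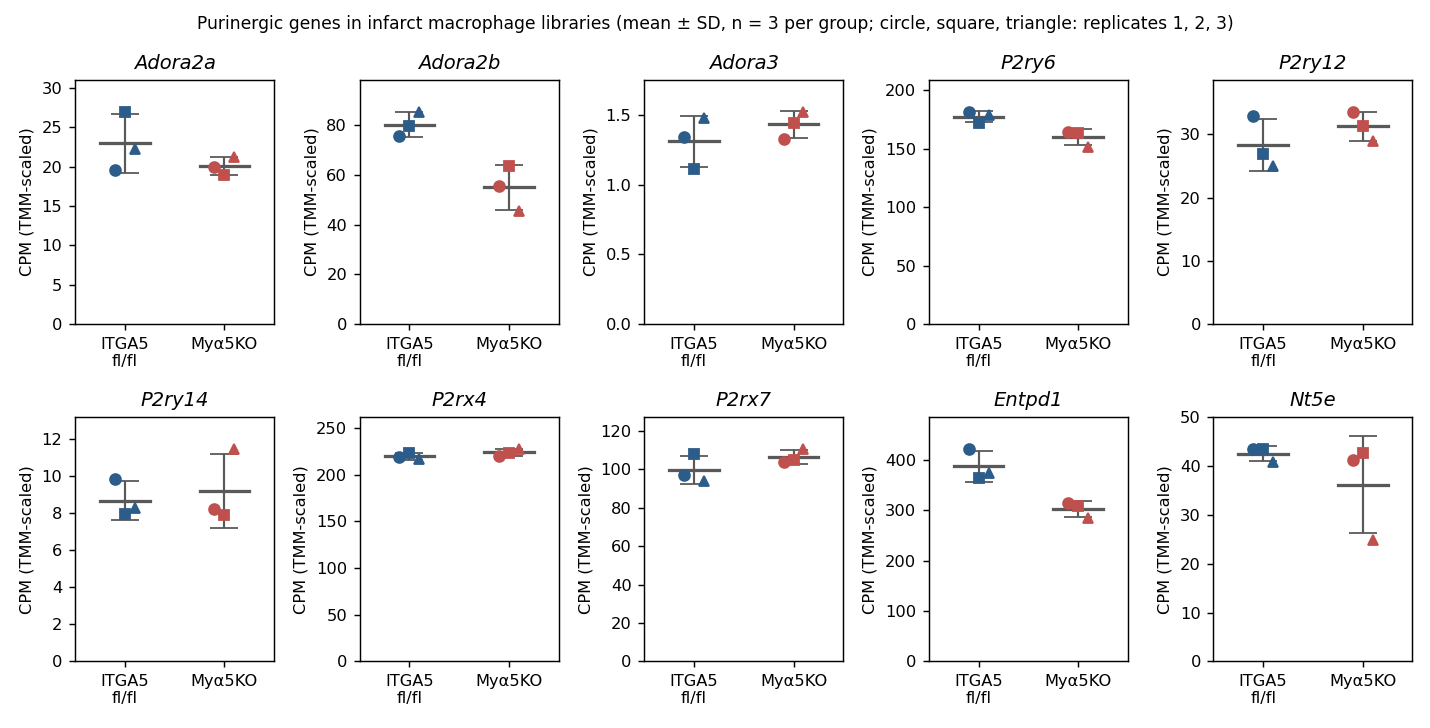
TMM-scaled CPM of the 10 genes in each library, 1 panel per gene with its own axis from 0; points are libraries and lines are means ± SD of 3 libraries per genotype. Adora2b and Entpd1 show groups that stand apart, with 80.2 against 55.0 and 387 against 303 CPM on average, while P2rx4 is almost level at 219.65 against 224.

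The promoter sequences of the 2 members called lower are shown here to give their context, as 250 bases before the annotated start, 5′ to 3′ on the gene's strand (RefSeq, GRCm38.p6). Adora2b has 1 entry, at chr11:62248734-62248983 on the plus strand, and Entpd1 has 2, at chr19:40612116-40612365 and chr19:40659520-40659769, also on the plus strand. Capitals mark CGTCA, which is the motif TGACG read on the opposite strand.
Adora2b: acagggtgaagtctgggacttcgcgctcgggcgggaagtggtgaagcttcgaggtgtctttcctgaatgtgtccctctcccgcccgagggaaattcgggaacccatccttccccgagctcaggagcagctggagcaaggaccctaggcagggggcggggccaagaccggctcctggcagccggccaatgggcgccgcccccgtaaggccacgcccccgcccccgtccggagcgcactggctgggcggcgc
Entpd1, upstream start: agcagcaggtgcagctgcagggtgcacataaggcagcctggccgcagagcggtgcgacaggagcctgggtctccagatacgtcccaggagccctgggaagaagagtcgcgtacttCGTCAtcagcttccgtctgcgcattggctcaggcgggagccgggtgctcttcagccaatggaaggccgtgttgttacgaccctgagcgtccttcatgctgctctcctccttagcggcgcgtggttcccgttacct
Entpd1, downstream start: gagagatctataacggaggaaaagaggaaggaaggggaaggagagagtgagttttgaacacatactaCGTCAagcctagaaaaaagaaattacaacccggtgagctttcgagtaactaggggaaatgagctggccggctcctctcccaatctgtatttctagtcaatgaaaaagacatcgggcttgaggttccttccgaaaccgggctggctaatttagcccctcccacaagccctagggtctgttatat
The window of Adora2b is 69.6% GC, that of the upstream Entpd1 start 62.4% and that of the downstream start 47.2%, against a median of 52.4% over all windows. Both strands were searched for TGACGTCA (the palindromic cyclic AMP response element), its shorter core TGACG, the hypoxia response core ACGTG and the AP-1 element TGACTCA. The shorter core lies within the longer element and can overlap the hypoxia response core. A single TGACG was found in each Entpd1 window, 135 and 183 bases before the start, and the Adora2b window held none of the 4 motifs. In all, 8 members had an entry, with 13 windows. TGACG was in 3 of them (both Entpd1 windows and P2rx4) and in 17.7% of 32817 windows of the same length, and TGACTCA was in 3 (Adora3, P2rx7 and P2ry14) against 4.5%. ACGTG was in 1 (P2ry12) against 16.6%, and TGACGTCA was in none against 1.5%. P2ry6 and Adora2a had no entry.

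Among the adenosine receptors, Adora2b encodes the low-affinity A2b receptor, which responds when extracellular adenosine is high. Adora2b (ENSMUSG00000018500, chr11:62248984-62266453, plus strand, GRCm38) measured 75.5, 79.7 and 85.4 CPM in the 3 control libraries and 55.7, 63.6 and 45.6 CPM in the 3 Myα5KO libraries. Every knockout library was below every control library. The means were 80.2 ± 4.99 and 55.0 ± 9.04 CPM, and the log2 fold change was -0.55 (SE 0.10, 95% confidence interval -0.76 to -0.33, edgeR adjusted p = 0.00506). These values rest on 867 to 1501 reads per library. When each library was left out in turn, the log2 fold change ranged from -0.67 to -0.43 and Adora2b was called in all 6 fits. On the deposited FPKM values it did not pass (log2(FPKM + 1) difference -0.55, limma adjusted p = 0.0581).

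Adora2a encodes the high-affinity A2a receptor, the main adenosine receptor of many leukocytes. Adora2a (ENSMUSG00000020178, chr10:75316877-75334784, plus strand) measured 19.6, 27.0 and 22.3 CPM in controls and 20.0, 19.0 and 21.2 CPM in knockouts. The groups overlapped, and the second control library was the highest of the 6. The log2 fold change was -0.20 (SE 0.11, confidence interval -0.44 to 0.05, adjusted p = 0.329), so that a level of 73.7 to 103% of control was compatible with these libraries. Adora3 (ENSMUSG00000000562, chr3:105870858-105908926, plus strand), for the A3 receptor, was close to the lower limit of the assay, with 20, 19 and 26 reads in controls and 25, 27 and 29 in knockouts. Its means were 1.31 ± 0.183 and 1.43 ± 0.0975 CPM (log2 fold change 0.13, SE 0.27, adjusted p = 0.826). The confidence interval ran from 72.8 to 164% of control, so that a difference within these bounds was not resolved at this depth. The count of Adora3 is also uncertain, because 779 of its exon bases (20.9%) are shared with Tmigd3. Adora1, the remaining P1 receptor gene, had 0 to 4 reads per library and was not tested.

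The balance of both A2 receptor transcripts was taken within each library as the ratio of their FPKM values, which corrects for gene length. Adora2a over Adora2b was 0.156, 0.204 and 0.157 in controls and 0.217, 0.180 and 0.281 in knockouts. The second knockout library lay below the second control library, and the groups therefore overlapped. The mean log2 ratio was -2.55 in controls and -2.17 in knockouts, a difference of 0.37 (exact two-sided permutation p = 0.2, 0.45 after adjustment over the 3 ratios tested).

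Entpd1 encodes CD39, which hydrolyses extracellular ATP and ADP and carries out the first step towards adenosine at the cell surface. Entpd1 (ENSMUSG00000048120, chr19:40612366-40741602, plus strand) measured 422, 365 and 375 CPM in controls and 315, 310 and 286 CPM in knockouts. The lowest control library was above the highest knockout library. The means were 387 ± 30.7 and 303 ± 15.6 CPM, with a log2 fold change of -0.35 (SE 0.07, confidence interval -0.51 to -0.19, edgeR adjusted p = 0.0105). Between 5434 and 6596 reads per library support these values. Entpd1 was called in all 6 leave-one-out fits (-0.39 to -0.29), and not on FPKM values (-0.35, limma adjusted p = 0.0543).

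Nt5e encodes CD73, the enzyme that forms adenosine from AMP. Nt5e (ENSMUSG00000032420, chr9:88327197-88372092, plus strand) measured 43.4, 43.5 and 40.8 CPM in controls and 41.3, 42.6 and 24.8 CPM in knockouts. A single knockout library, the third, stood well below the other 5, which lay close together. The means were 42.6 ± 1.55 and 36.2 ± 9.92 CPM (log2 fold change -0.23, SE 0.15, confidence interval -0.55 to 0.09, adjusted p = 0.38). Without the third Myα5KO library the log2 fold change was -0.02 (adjusted p = 0.903), so that the lower knockout mean rests on that library. The same library was the lowest of the 6 for Adora2b and Entpd1. It had the lowest summed fibroblast markers (1209 CPM) and the highest summed granulocyte markers (370 CPM). Over all 6 libraries Entpd1 ran in the same order as the summed fibroblast markers, highest in the first control library (422 and 1897 CPM). Adora2b did not follow that order. The part of cell makeup in the values of these genes was not tested. In RNA pooled over sorted cells, fewer cells of a type and less RNA per cell cannot be told apart.

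The pair of enzymes was also compared within each library. Nt5e over Entpd1 (FPKM) was 0.0667, 0.0774 and 0.0705 in controls and 0.0850, 0.0893 and 0.0564 in knockouts. Knockout libraries thus held both the highest ratios and the lowest. The difference in mean log2 ratio was 0.08 (exact two-sided permutation p = 0.8).

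**Figure D2:**
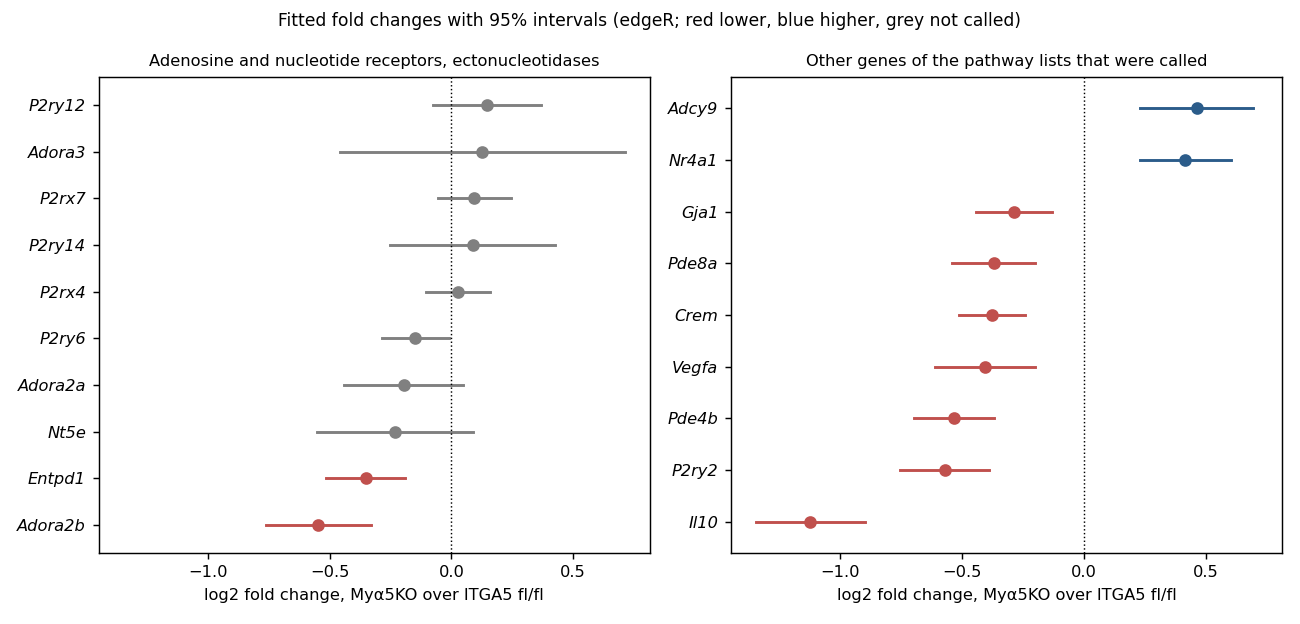
Log2 fold change of each of the 10 genes (Myα5KO over ITGA5 fl/fl, edgeR, 3 libraries per genotype) with its 95% confidence interval. Adora2b (-0.55) and Entpd1 (-0.35) are the 2 called among these 10. P2ry6 (-0.15) lies just below 0, and the interval of Adora3 is the widest of the 10, from -0.46 to 0.71. A second panel shows the other called genes of the pathway lists in the same way.

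Among the P2Y receptors, P2ry6 encodes the receptor for UDP, a nucleotide released by damaged cells that is known to promote phagocytosis and cytokine release by macrophages. P2ry6 (ENSMUSG00000048779, chr7:100937630-100974649, minus strand) measured 182, 172 and 178 CPM in controls and 165, 164 and 152 CPM in knockouts. The groups did not overlap, but the gap between them was small. The means were 177 ± 4.86 and 160.1 ± 7.08 CPM. The log2 fold change of -0.15 (SE 0.06, confidence interval -0.29 to -0.01, edgeR adjusted p = 0.177) did not pass the threshold.

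P2ry12 encodes the ADP receptor known from platelets and microglia. P2ry12 (ENSMUSG00000036353, chr3:59216272-59262871, minus strand) measured 32.9, 27.0 and 24.98 CPM in controls and 33.6, 31.2 and 28.9 CPM in knockouts, and the groups overlapped (log2 fold change 0.15, SE 0.10, adjusted p = 0.434). Its level was at 94.8 to 129% of control by the confidence interval. Of the 6 platelet markers Gp1bb and Gp6 had no read in any library, and the summed platelet markers (212.5 to 341 CPM and 225 to 248.5 CPM) overlapped between the groups. P2ry14 (ENSMUSG00000036381, chr3:59113855-59153618, minus strand), the receptor for UDP-glucose, measured 9.85, 7.93 and 8.25 CPM in controls and 8.20, 7.92 and 11.5 CPM in knockouts. The third knockout library was the highest and the remaining 5 overlapped (log2 fold change 0.09, SE 0.16, adjusted p = 0.789). Without that library the value was -0.10, and the sign of the difference therefore depended on it.

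The genes of P2ry12, P2ry13 and P2ry14 lie side by side on chromosome 3, with 5389 bases between P2ry12 and P2ry13 and 54273 bases between P2ry13 and P2ry14. P2ry13, another ADP receptor, averaged 18.4 ± 0.464 CPM in controls and 20.8 ± 0.9 CPM in knockouts (log2 fold change 0.18, adjusted p = 0.253). None of the 3 neighbours was called. P2ry2, a receptor for ATP and UTP, lies 21918 bases from P2ry6 on chromosome 7 and was called lower. It measured 41.9, 39.6 and 46.9 CPM in controls and 30.8, 28.6 and 27.1 CPM in knockouts, groups that stood clearly apart. The log2 fold change of P2ry2 was -0.57 (SE 0.09, adjusted p = 0.00143), and it was called in all 16 alternative analyses.

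Neither ATP-gated channel was called. P2rx4 encodes a channel that opens at low ATP, and P2rx7 one that needs high ATP and is known to trigger the inflammasome. P2rx4 (ENSMUSG00000029470, chr5:122707544-122729738, plus strand) measured 219, 223 and 216 CPM in controls and 220.5, 224 and 228 CPM in knockouts. The groups overlapped and all 6 libraries lay close together. The log2 fold change was 0.03 (SE 0.06, adjusted p = 0.83), and its confidence interval ran from 93.1 to 112% of control. P2rx7 (ENSMUSG00000029468, chr5:122643911-122691432, plus strand), which lies 16111 bases from P2rx4, measured 97.1, 108 and 93.8 CPM in controls and 104, 105 and 111 CPM in knockouts. Its groups overlapped too, since the second control library exceeded 2 of the knockout libraries. The log2 fold change was 0.09 (SE 0.07, adjusted p = 0.451; 96.3 to 118% of control).

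P2rx7 over P2rx4 (FPKM) was 0.521, 0.569 and 0.510 in controls and 0.554, 0.551 and 0.571 in knockouts, a difference of 0.07 in mean log2 ratio (exact two-sided permutation p = 0.3). P2rx1, whose channel is known from platelets and neutrophils, was scarce (2.87 CPM in controls and 1.45 CPM in knockouts) and did not pass (log2 fold change -0.99, adjusted p = 0.0618).

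Levels of different genes were compared per length, as the deposited FPKM. Averaged over the 6 libraries, Entpd1 was at 61.6 FPKM (range 50.3 to 75.5) and P2ry6 at 58.1 (51.7 to 62.8). Entpd1 was above P2ry6 in 3 of the 6 libraries, and those were the control libraries. Adora2b followed at 36.4 FPKM (24.3 to 46.2) and P2rx4 at 31.4 (30.7 to 31.9), with Adora2b higher in 4 of 6 libraries. Neither of these neighbouring pairs could therefore be ordered over all 6 libraries. Among controls alone, the lowest Entpd1 value (64.8 FPKM) was above the highest P2ry6 value (62.8). There the lowest Adora2b value (40.8 FPKM) was likewise above the highest P2rx4 value (31.5). Adora2b averaged above P2rx4 in controls and fell below it in 2 of the 3 knockout libraries. Next came P2rx7 at 17.1 FPKM, P2ry12 at 11.6, Adora2a at 6.99, Nt5e at 4.56, P2ry14 at 0.803 and Adora3 at 0.366, and each of these was above the next in all 6 libraries. Entpd1 ranked 773 by FPKM among the 14522 tested genes and Adora3 13029. In CPM, the coefficient of variation among the control libraries ran from 1.51% for P2rx4 to 16.4% for Adora2a, and among Myα5KO libraries from 1.61% for P2rx4 to 27.4% for Nt5e.

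**Figure D3:**
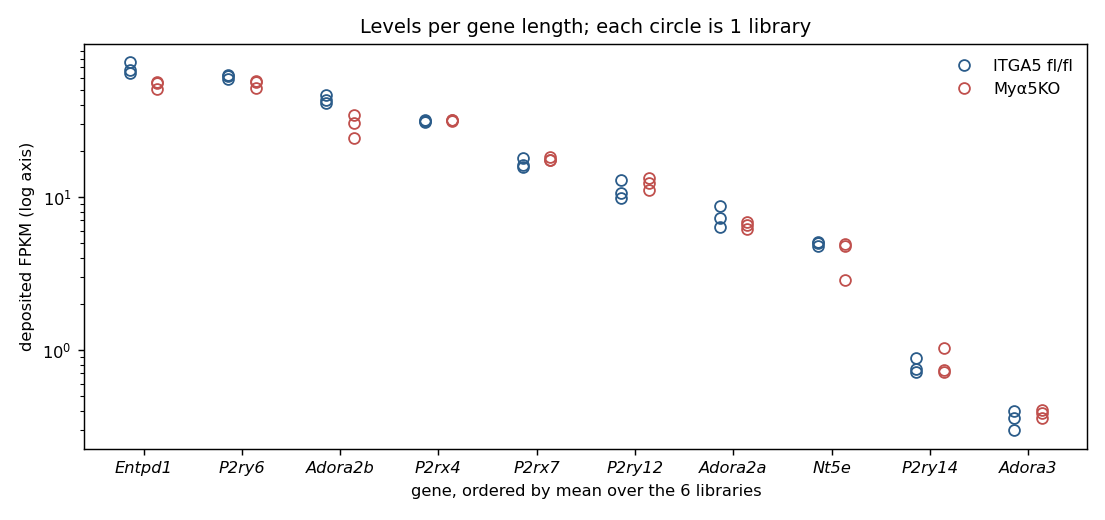
Deposited FPKM of the 10 genes on a log axis, ordered by their mean over 6 libraries; each point is 1 library, coloured by genotype. The order runs from Entpd1 at 61.6 to Adora3 at 0.366 FPKM, and the points of Entpd1 and P2ry6 overlap, as do those of Adora2b and P2rx4.

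The wider purinergic pathway was read from 8 lists that hold 58 further genes, of which 52 were tested. Of these 2 were called higher and 7 lower, and 43 were not called. The median log2 fold change over the 52 was -0.02. Against the 3.56% and 5.19% of all tested genes called higher and lower, the lists for adenosine receptors, P2Y receptors, ectonucleotidases and nucleotide release held 1 lower call each (Adora2b of 3 tested, P2ry2 of 7, Entpd1 of 8 and Gja1 of 4). None of the 5 P2X genes tested and none of the 7 genes for adenosine uptake and clearance was called by edgeR. At an unadjusted edgeR p under 0.05, 1 P2X gene was lower and 3 uptake and clearance genes were higher. Of all genes tested, 11.4% were lower and 11.7% higher at that threshold. The lists for adenosine receptors, P2Y receptors, ectonucleotidases and nucleotide release had 1, 2, 2 and 1 lower and 0 higher. The cyclic AMP list had 7 lower and 2 higher of 21, and the A2 receptor response list 3 lower and 2 higher of 7. Gja1, which encodes connexin 43, a hemichannel that can release ATP, averaged 58.6 ± 2.15 CPM in controls and 48.1 ± 3.53 CPM in knockouts (log2 fold change -0.29, SE 0.07, adjusted p = 0.0277). Its call was lost in 5 of the 6 leave-one-out fits and held only without the first Myα5KO library. Over the 6 libraries Gja1 ran in the same order as the summed fibroblast markers. Both were highest in the first control library (60.4 and 1897 CPM) and lowest in the third Myα5KO library (44.6 and 1209 CPM). How far cells other than macrophages contributed to the Gja1 reads was not tested.

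The A2a and A2b receptors act through cyclic AMP, and 21 genes of that route were tested. Of these 3 were called lower and 1 higher, against 5.19% and 3.56% of all genes tested, and the list's median log2 fold change was 0.02. Pde4b, a phosphodiesterase that degrades cyclic AMP, measured 484, 467 and 457 CPM in controls and 341, 343 and 290 CPM in knockouts. These groups were far apart, with means of 469 ± 13.9 and 325 ± 30 CPM (log2 fold change -0.53, SE 0.08, adjusted p = 0.00111). Crem, for the cyclic AMP response element modulator, measured 256, 266 and 253 CPM in controls and 202, 202 and 192 CPM in knockouts. Its log2 fold change was -0.38 (SE 0.06, edgeR adjusted p = 0.00287), and the groups again did not overlap. A share of 8.0% of the exon bases of Crem overlaps Gm6225. Pde8a, another cyclic AMP phosphodiesterase, fell from 67.3 ± 0.995 to 52.1 ± 5.62 CPM (log2 fold change -0.37, SE 0.08, adjusted p = 0.0108). Adcy9, an adenylyl cyclase that makes cyclic AMP, rose from 19.7 ± 1.97 to 27.1 ± 3.28 CPM (log2 fold change 0.46, SE 0.11, adjusted p = 0.0183). The call of Adcy9 was lost without the second (0.40) or the third (0.45) control library and without the second Myα5KO library (0.39). Pde4b and Crem were called in all 16 alternative analyses. Whether cyclic AMP signalling differed between the genotypes was not tested.

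Of 7 genes known to respond to A2 receptors in macrophages, 2 were called lower and 1 higher, against 5.19% and 3.56% of all genes tested. The study had already reported lower Vegfa and Il10 in Myα5KO infarct macrophages, so these counts are descriptive only. Il10, for the anti-inflammatory cytokine IL-10, fell from 447 ± 68.5 to 206 ± 20.8 CPM (log2 fold change -1.12, adjusted p = 5.6e-05). Vegfa, for the angiogenic factor VEGF-A, fell from 664 ± 37.7 to 502 ± 73.0 CPM (log2 fold change -0.40, adjusted p = 0.0189), a call lost without the first (-0.39) or the second (-0.38) ITGA5 fl/fl library. Nr4a1, for a nuclear receptor that acts as an early response gene, rose from 1031 ± 75.8 to 1376 ± 137 CPM (log2 fold change 0.42, SE 0.09, adjusted p = 0.00972), and its call was lost without the third ITGA5 fl/fl library (0.36, adjusted p = 0.0606). The other 4 did not pass by edgeR. These were Tnf (log2 fold change -0.25, adjusted p = 0.123), Il12b (-0.21, 0.517), Nr4a2 (0.23, 0.172) and Nr4a3 (0.04, 0.838). A2 receptors are known to favour IL-10 and VEGF and to restrain inflammatory cytokines such as those of Tnf and Il12b. No direction is named here for the Nr4a genes, of which Nr4a1 rose. The list therefore has no single expected direction. All of these genes have other regulators, and whether adenosine receptors bear on their levels was not tested.

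**Figure D4:**
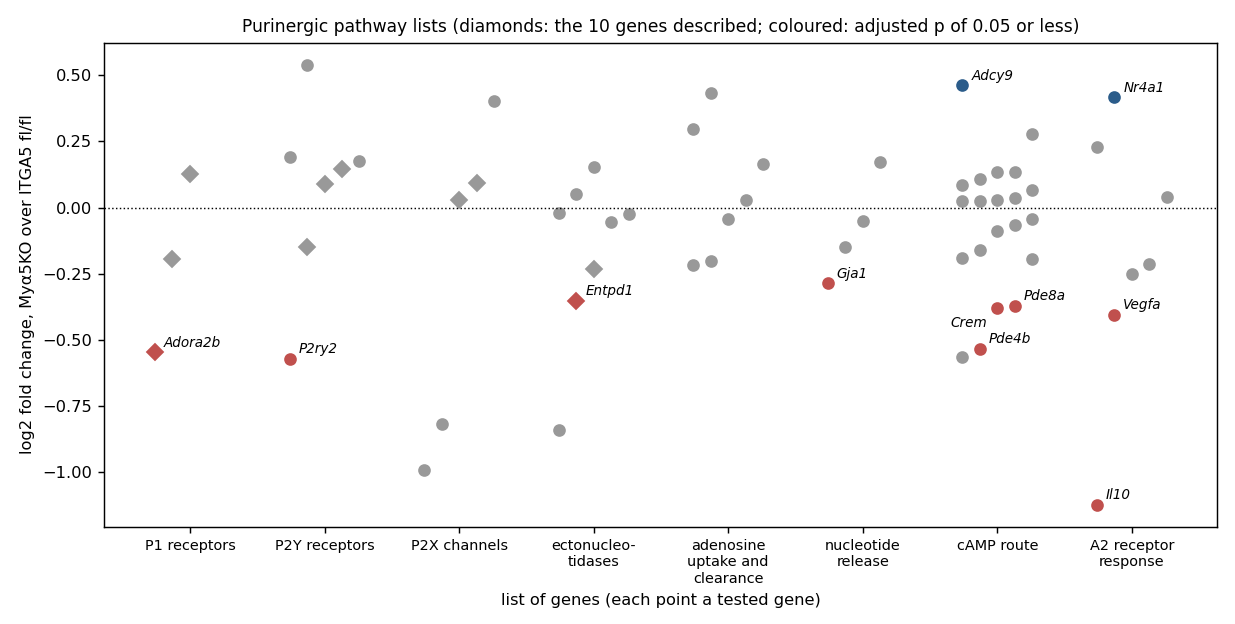
Log2 fold change (Myα5KO over ITGA5 fl/fl) of each tested gene of the 8 lists; diamonds are the 10 described genes, coloured points passed an adjusted p of 0.05 and grey points did not. Called genes are labelled, from Il10 at -1.12 to Adcy9 at 0.46, and most points of each list are grey.

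The calls of the 10 genes were steady across most ways of processing the counts. Adora2b and Entpd1 were each called in 14 of 16 alternative analyses and had a negative sign in all 16. No other member was called in any alternative. Scaling by library totals alone moved the overall split of calls from 517 higher and 754 lower to 1212 higher and 518 lower, and under it the members still had 2 called lower and 0 higher.

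**Figure D5:**
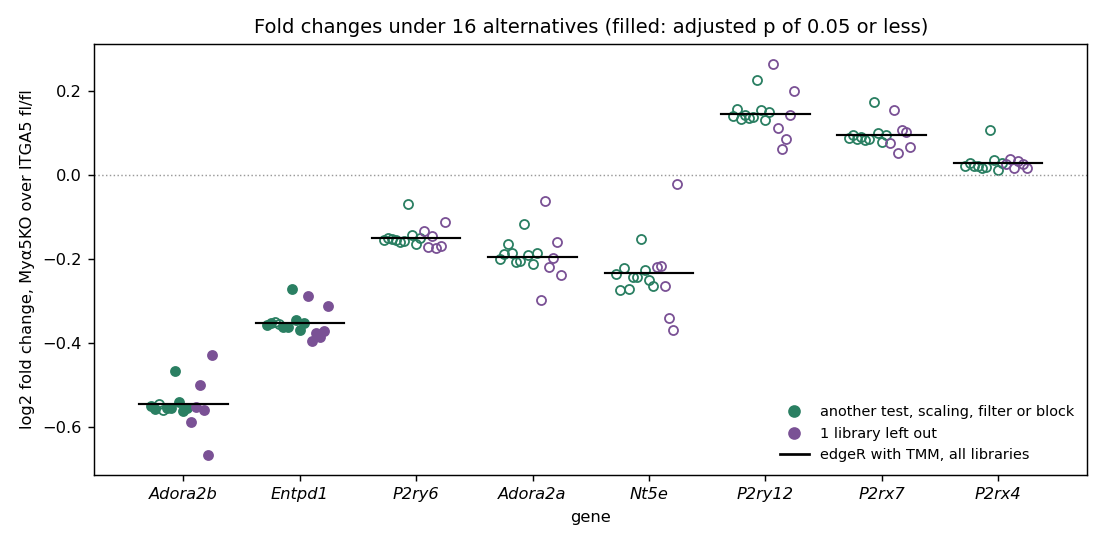
Log2 fold change of Adora2b, Entpd1 and 6 other members (Myα5KO over ITGA5 fl/fl) under each alternative analysis; filled points passed an adjusted p of 0.05. Adora2b stays between -0.67 and -0.43 and Entpd1 between -0.39 and -0.27, and both are unfilled only in the fits on FPKM values.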

How the data were processed

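Libraries (polyadenylated RNA, NEBNext Ultra) came from magnetically sorted cells of single infarcted hearts, 3 per genotype. The authors aligned reads with TopHat2 2.0.9 to GRCm38.p6 (mm10) and deposited HTSeq 0.6.1 counts per gene and FPKM. The handling of strand and multi-mapped reads is not given in the sources used here. In the deposited FPKM each count is divided by gene length and 1 constant per library. Genes passing filterByExpr (minimum count 10, minimum total 15) were scaled by TMM and tested with edgeR 4.0.16 in R 4.3.3 (quasi-likelihood, two-sided, no covariate). P-values were adjusted by Benjamini-Hochberg over 14522 genes. edgeR gives no SE here, so each was derived as the absolute log2 fold change over the square root of the quasi-likelihood F statistic. The 95% confidence intervals used that SE and a t quantile at the total degrees of freedom of the fit. The study's methods name DESeq2 (1.42.0 here), which was run as an alternative beside limma 3.58.1 (on voom weights, and on FPKM at 1 or more in 3 libraries, with pseudocounts of 1 and 0.1), other scalings, filters, thresholds, a replicate block and fits without each library. Tested on simulated counts of 14522 genes with 200 changed, the edgeR step recovered 50.6% of 1.41-fold, 83.3% of 2-fold and 100% of 4-fold changes, with 13 false among 166 calls. Fewer genes were changed there than the 1271 called in the data, so these rates hold for the simulated setting only. Ratios and summed markers were tested by exact permutation, which cannot go below 0.1 with 3 against 3. The genes named are the 10 members, Itga5 and Lyz2, every called gene of the pathway lists, and paralogs or neighbours of members. Fcgr1, Ly6g, Gp1bb, Gp6, Tnf, Il12b, Nr4a2, Nr4a3 and the overlapping genes Tmigd3 and Gm6225 were added after their values were seen. The members and lists were chosen with earlier results of these data known. Replicate libraries of a genotype differed by more than counting noise, so none was counted as a repeat.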

Additional observations from a re-analysis of the deposited data

How the results depend on the processing

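Adora2b and Entpd1 kept their negative sign in all 16 alternatives. Over the members, 155 of 156 values kept the sign of the reported fit, the exception being P2ry14 without the third Myα5KO library, and 4 calls were lost and 0 gained. Members called lower numbered 2 with edgeR and 0 with limma on log2(FPKM + 1) or on log2(FPKM + 0.1), where 3 were lower at an unadjusted p under 0.05. At an adjusted p of 0.01 the number was 1, and 0 in a test against a 1.5-fold change, where 0 passed unadjusted. With any 1 library left out it stayed at 2. Further pathway genes called lower numbered 7, against 4 in each FPKM fit and 11 without a filter on low counts; with a library left out they ranged from 5 to 7. Those called higher numbered 2, against 0 in each FPKM fit, 5 with library-total scaling and 5 without a filter. With a library left out they ranged from 0 (without the third ITGA5 fl/fl library) to 4 (without the first), with 1 without the second ITGA5 fl/fl or the second Myα5KO library and 3 without the first Myα5KO library. Adora3 and P2ry14 lay below the FPKM filter and have no value there. Overall calls fell from 517 higher and 754 lower to 150 and 322 on log2(FPKM + 1), and were 798 and 940 without a filter. The labels number the libraries of both genotypes, but correlations of same-numbered libraries (0.0532, -0.0868 and 0.0389) did not pair them. With the replicate number as a block, 2 members were lower (Adora2b -0.55, adjusted p = 0.00917; Entpd1 -0.35, adjusted p = 0.0128) and 0 higher, with 8 further pathway genes lower and 2 higher, and only the third control library correlated best with the knockout library of its own number. Depth limits Adora3 most, with 19 to 29 reads per library.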
